A study of Xenopus tropicalis with 192 samples.

Results

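Chromosome 7 is the sex chromosome of the Western clawed frog, Xenopus tropicalis, and 515 of the 6717 measured CpGs lie on it. A CpG was taken as a member when its deposited position was on chromosome 7 of the v10.0 genome build. The members were divided at position 20000000, because the end below it holds the sex-determining region. The first 20 Mb held 84 CpGs and the rest of the chromosome 431, and the other chromosomes held 6202. The choice went by position and by no measured value, though earlier results of these data were known when it was made.

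In vertebrate genomes most CpGs carry a methyl group on the cytosine, and low methylation is usually found at active promoters and other regulatory DNA. Sex in Xenopus tropicalis is set genetically by W, Z and Y forms of chromosome 7, which differ little from each other and recombine along most of their length. Bisulfite treatment turns unmethylated cytosines into bases read as T, and the methylation of a CpG is the fraction of its reads left as C. A change of the cytosine itself to T in the DNA is read in the same way.

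Methylation was measured in hindlimb webbing skin of 187 adults and in 5 whole tadpoles of known age, all kept at a single resource centre in 34 tanks. The tadpoles were 3 of the strain Superman F9 WT, aged 89 days, and 2 of the strain ZBTB14 KO, aged 177 days. The 156 older adults were aged 547 to 3987 days (10.9 years) and belonged to 21 strains, and the 22 oldest were all Xtr.Tg(eef1a1:GFP)Krieg. The strains included WT Superman (937 days) and the knockout gtpbp2 F1 KO (1693 days). The names of TYR (547 days), OLIG2 F1 (899), sox3 F0 (1300), NXR 1111 (1507) and tlx3 F0 (1937) give no genotype. The others were GFP or RFP reporters. Among them were CMV MEM GFP (841 days), tubb2b GFP (2059 days, 1 frog 547), Xtr.Tg(otx2:GFP)Kellr (1105 and 1532 days) and lines with names ending in Mead (2860 to 3301 days). Xtr.Tg(CMV:Aequorin,GFP)NXR, whose name also gives aequorin, was sampled at 726 and 1337 days. Older frogs of Xtr.Tg(cryga:GFP)Grngr were aged 3583 days, and Xtr.Tg(eef1a1:GFP)Krieg was sampled at 2523 as well as 3987 days. The 31 young adults, which were under 1 year old, were 19 of NIGERIAN F8 at 269 days, 3 of Xtr.Tg(cryga:GFP)Grngr at 273 days and 9 of SUPERMAN F8 at 332 days. The titles of the 3 Xtr.Tg(cryga:GFP)Grngr frogs call them tadpoles, but their tissue is given as webbing, and they were kept with the adults. Every strain was on a Nigerian genetic background. Tank mates shared strain and, except for 1 frog, age, and the sex of the frogs is not given in the sources used here. Values are fractions from 0 to 1, each from at least 100 reads. The probes were aimed at regions whose methylation followed age in a smaller set of frogs, so the members do not sample the chromosome evenly.

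The 515 CpGs formed 211 clusters, a cluster being a run of CpGs at most 500 bp apart. The first 20 Mb held 27 clusters, beside 15 to 55 in the other bins of 20 Mb along the chromosome. These ran from a cluster of 6 CpGs at positions 175450 to 175489, close to an rRNA gene (LOC116412586), to a group of 34 CpGs between positions 19732993 and 19783687. Of the 84 CpGs there, 18 lay in the gene LOC101733213, 12 in LOC116412128 and 9 in cdca3, a gene of entry into mitosis. By RefSeq gene spans, 71.4% of the CpGs of the first 20 Mb were inside a gene, against 58.5% in the rest of the chromosome and 35.8% on the other chromosomes. A list of 24 gene names taken for sex determination and sex steroid synthesis was looked up, of which 23 had a symbol in RefSeq. The match was by name alone, and whether each symbol, such as sf1 beside nr5a1, names the intended gene was not checked. Only wnt4 and cyp17a1 were on chromosome 7, and no gene of the list had a measured CpG within 5 kb.

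A mixture filter rebuilt from the study's methods was applied, which takes out CpGs whose values fall into separate levels and reach almost 0. It removed 48 of the 515 CpGs of chromosome 7 (9.32%), 4 of 84 in the first 20 Mb and 44 of 431 in the rest, against 494 of 6202 (7.96%) on the other chromosomes. The removed CpGs had a mean level of 0.482 in the first 20 Mb and 0.517 in the rest of the chromosome. For such separate levels the study proposes germline mutations from C to T in some strains as the likely source. This was not tested here, and it bears on the split CpGs described below. The 467 CpGs that stayed were used for levels, age and stage, and all 515 for the division of tank mates.

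Methylation was high over the whole chromosome. Among filtered CpGs, the adult mean of a CpG had a median of 0.895 on chromosome 7 and 0.898 on the other chromosomes. In the first 20 Mb 43 of 80 CpGs (53.8%) had a mean above 0.9, against 177 of 387 (45.7%) in the rest. Means under 0.5 were seen at 3 CpGs of the first 20 Mb and at 24 of the rest. The first 20 Mb was more methylated than the rest of the chromosome in every adult tank: tank means averaged 0.856 ± 0.0107 in the first 20 Mb and 0.822 ± 0.0119 in the rest (SD, n = 32 tanks). The difference was 0.0342 ± 0.0074 (higher in 32 of 32 tanks) and ran from 0.0152 in the tank of tubb2b GFP to 0.0466 in a tank of 4 Xtr.Tg(eef1a1:GFP)Krieg frogs. A two-sided sign-flip permutation test over tanks gave p = 1e-05, the smallest it can give (adjusted p = 7e-05 over the 7 single-value tests made). The tanks of lane 1 differed by 0.0354 (n = 21) and those of lane 2 by 0.0319 (n = 10), and 1 tank was on both lanes.

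This difference rested on how the CpGs were counted. With the median over CpGs it was 0.0171 (higher in 30 of 32 tanks), with the division at 10 Mb 0.069 and with the division at 30 Mb 0.0191. With each cluster counted once, the means over tanks were 0.795 in the first 20 Mb and 0.795 in the rest, the difference was -0.00039 (p = 0.808, permutation test) and 14 of 32 tanks were higher in the first 20 Mb. The 9 clusters of the first 20 Mb with 4 or more filtered CpGs held 50 of its 80 CpGs and had levels of 0.889 to 0.950. Its 18 smaller clusters ranged from 0.256 to 0.943. In the rest, the 18 clusters of that size held 166 of 387 CpGs and ranged from 0.322 to 0.961. The test compares these CpGs across tanks and says nothing of CpGs that were not captured. The first 20 Mb of the other chromosomes had mean levels from 0.714 on chromosome 10 to 0.891 on chromosome 2, and chromosome 7 with 0.857 lay inside that range. Along chromosome 7 itself the bin of 80 to 100 Mb had a mean of 0.864, above the first 20 Mb, and the other bins of 20 Mb had 0.802 to 0.835.

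**Figure D1:**
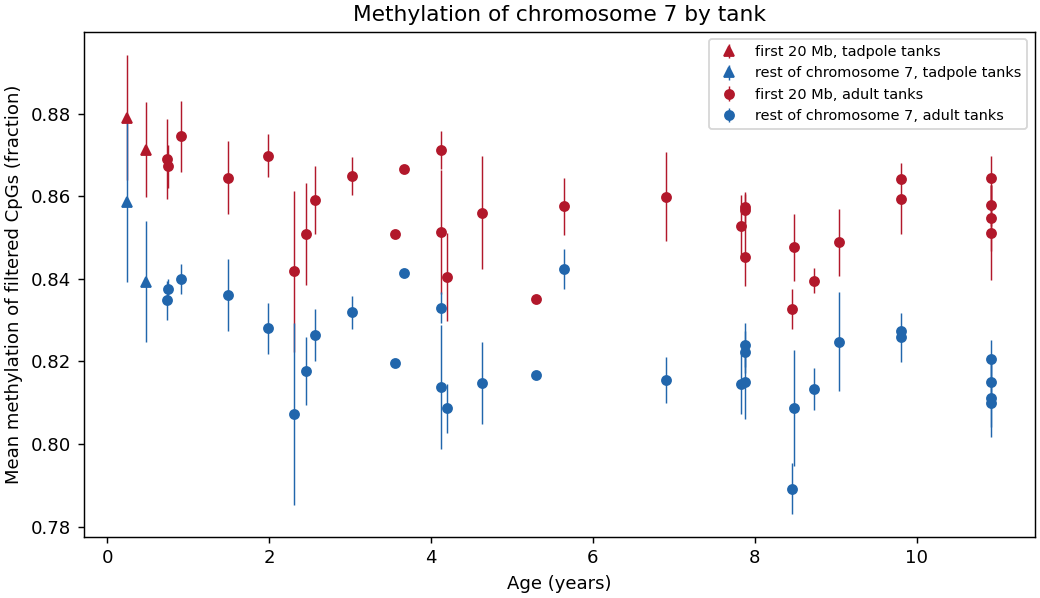
Mean methylation (fraction) of filtered CpGs in each tank against age in years, for the first 20 Mb (red) and the rest of chromosome 7 (blue). Circles are adult tanks, triangles are the 2 tadpole tanks and bars are the SD over frogs of the tank, drawn for tanks of 2 or more frogs. The red point lies above the blue point of the same tank in all 32 adult tanks, by 0.0152 to 0.0466.

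Chromosome 7 as a whole was close to the rest of the genome. Adult tank means were 0.827 ± 0.0114 on chromosome 7 and 0.830 ± 0.0110 on the other chromosomes (SD, n = 32 tanks). The difference of -0.0029 ± 0.0037 was small but past the threshold (p = 0.00015, sign-flip permutation test, adjusted p = 0.000525), with chromosome 7 higher in 9 tanks. It was -0.00384 in lane 1 (p = 0.00012) and -0.00078 in lane 2 (exact p = 0.586). Counting each cluster once gave -0.0003 (p = 0.634, permutation test).

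The CpG just inside the division, at position 19783687, had an adult mean of 0.693, and its neighbour at 19783679, 8 bp away, had 0.954. The mixture filter removed the former, whose adult values ran from 0 to 0.991, so its mean averages over separate levels. The latter stayed. The 2 CpGs lie 2893 and 2901 bp from chst15, which codes for a sulfotransferase of chondroitin sulfate. The nearest CpGs outside it were at 20113368 inside hmx2, a homeobox gene, with 0.912, and at 20287915, 1673 bp from ctbp2, a transcriptional corepressor, with 0.90. The first CpG of the chromosome, at 175450, had 0.895 and the last, at 133555245 in LOC101732841, had 0.795.

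To see how far tank mates differed, a CpG was called split in a tank when a gap above 0.25 parted its frogs with at least 2 frogs on each side, in the 18 adult tanks of 6 or more frogs. Of the 9270 pairs of a chromosome 7 CpG and a tank, 328 (3.54%) were split, against 3.2% of pairs over the whole series. In the first 20 Mb 27 of 1512 pairs (1.79%) were split, and in the rest of the chromosome 301 of 7758 (3.88%). In terms of CpGs, 7 of 84 (8.33%) in the first 20 Mb and 53 of 431 (12.3%) in the rest were split in some tank, beside 10.9% of all CpGs. Of the 60 split CpGs of the chromosome, 42 were among those removed by the mixture filter, beside 488 of 735 over the whole series.

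The share of split CpGs in a tank was lower in the first 20 Mb than in the rest of the chromosome, with a mean of 1.79 ± 1.93% against 3.88 ± 2.67% and a difference of -2.09 ± 2.18 percentage points (SD, n = 18 tanks, sign-flip permutation test, p = 0.00068, adjusted p = 0.00159). It was lower in 13 tanks and higher in 5. All 8 tanks of lane 1 were lower in the first 20 Mb, with a mean difference of -3.78 points (exact p = 0.00781). In lane 2 the 9 tanks averaged -0.629 points (exact p = 0.266), with 5 of them higher in the first 20 Mb, and whether the lanes differ was not tested. Over filtered CpGs alone the difference was -0.311 points (p = 0.0491, permutation test). Counted by cluster, 5 of 27 clusters of the first 20 Mb and 41 of 184 of the rest held a split CpG, beside 608 of 2365 over the whole series. The test takes the CpGs as given and covers variation between tanks only. The first 20 Mb of chromosomes 5 and 8 held 0 split CpGs, of 23 and 32 measured, and that of chromosome 1 held 12 of 58. Over the 9 other chromosomes together 39 of 595 CpGs (6.55%) in the first 20 Mb were split in some tank.

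Tanks differed in the share of split CpGs. The share on chromosome 7 ranged from 0.194% in TYR, where a single CpG of 515 was split, to 8.35% in NIGERIAN F8. Among single other chromosomes the highest tank share was 12.4% on chromosome 4, where the lowest was 1.07%, and between 3.24% and 6.11% on the remaining 8. The mean over tanks was 3.54 ± 2.43% on chromosome 7 and 3.18 ± 0.827% on the others (SD, n = 18), and the difference of 0.362 points did not pass the sign-flip permutation test (p = 0.508). NXR 1111, with 8 and 9 frogs in a pair of tanks, had 6 and 3 split CpGs on chromosome 7 (1.165% and 0.5825%). On the other chromosomes these tanks had 220 and 210 (3.55% and 3.39%).

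**Figure D2:**
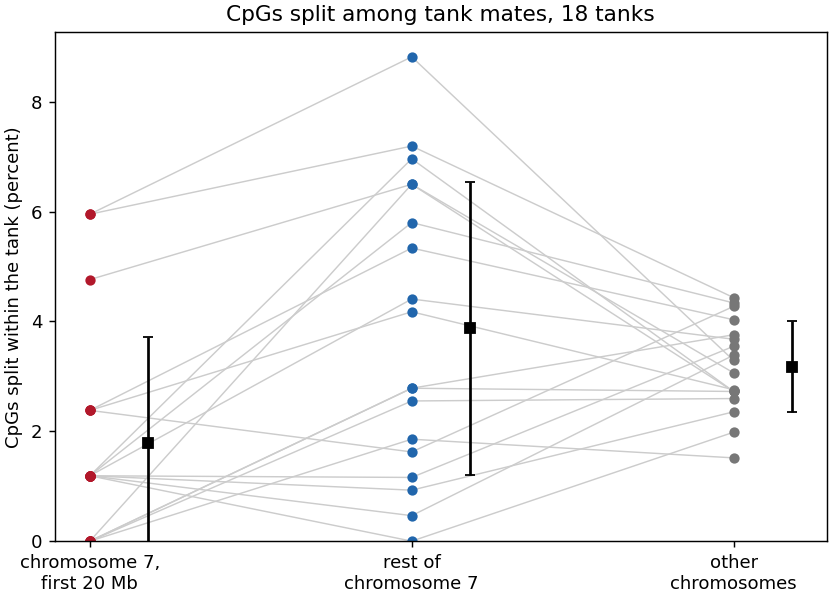
Percent of CpGs split among tank mates in each of the 18 adult tanks of 6 or more frogs, for the first 20 Mb of chromosome 7, the rest of the chromosome and the other chromosomes. Grey lines join the points of a tank and black squares with bars give the mean and SD. The means are 1.79% in the first 20 Mb, 3.88% in the rest of chromosome 7 and 3.18% on the other chromosomes, where a point pools 6202 CpGs of 9 chromosomes.

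The most often split CpG of the first 20 Mb was the one at 19783687, split in 7 tanks. Among the 19 frogs of NIGERIAN F8, 6 were below 0.25, 7 lay between 0.25 and 0.75, and 6 were at or above 0.75. The 7 frogs of TYR lay between 0.967 and 0.986, and the 22 oldest frogs between 0.959 and 0.986. The CpG at 12870826, which is 20304 bp from rnls, the gene of renalase, was split in 6 tanks. In NIGERIAN F8 it was below 0.25 in 5 frogs, between 0.25 and 0.75 in 9 and at or above 0.75 in 5. All 6 frogs of WT Superman were between 0.381 and 0.451. The 9 frogs of the larger NXR 1111 tank were 6 at the low level and 3 up to 0.436. The CpG at 19734893, inside oat, the gene of ornithine aminotransferase, was split in 5 tanks and stood at 0 in every frog of TYR, while all 13 frogs of CMV MEM GFP were between 0.571 and 0.682. So at these CpGs some tanks held a single level and others 2 or 3. The CpG at 19783623, in the same cluster as 19783687, was also split in 5 tanks, and that at 19734831, in the same cluster as 19734893, in 2. The remaining split CpGs of the first 20 Mb, at 19779463 and 11226114, were split in 1 tank each.

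In the rest of the chromosome the CpGs at 47923776, 59728274 and 23522945 were each split in 11 of the 18 tanks, and those at 87213127 and 68295240 in 10. Among these, the CpG at 68295240 lies inside opcml, a gene of a membrane-anchored adhesion protein, and the other 4 lay 32337 to 203279 bp from the nearest gene span. At 47923776, 41 of the 192 frogs were below 0.25, 95 between 0.25 and 0.75, and 56 at or above 0.75. All 7 frogs of TYR were at or below 0.0111, and all 17 frogs of NXR 1111 were between 0.859 and 0.911. At 87213127 all 22 oldest frogs were between 0.899 and 0.960, while the 6 frogs of tubb2b GFP were at most 0.00885. Strains thus held opposite ends of the range at these positions.

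A set of 7 split CpGs of chromosome 7 varied together over 61.3 Mb, and smaller sets did so over shorter distances. This was examined after the values had been seen, and it is given as a description without a test. For 40 CpGs split in 4 or more tanks (7.77%, beside 6.89% of all CpGs), the deviation of each of the 187 adults from its tank mean was correlated between CpGs. Frogs of a tank share ancestry and each CpG was chosen for its spread, so the correlations are not independent of each other. The largest chain of CpGs, in which each had an absolute r above 0.8 with at least 1 other, had 7 members, at positions 23522945, 44728242, 50181690, 52837731, 53658291, 68295240 and 84786299, and spanned 61.3 Mb. The CpGs at 44728242 and 84786299, 40.1 Mb apart, had r = 0.862, and those at 52837731, inside parg, and 84786299, 31.9 Mb apart, had r = 0.876. Those at 50181690, inside LOC100496969, and 53658291, 3.48 Mb apart, had r = 0.971. The weakest pair of the chain, at 23522945 and 68295240, had r = 0.64, and the pair at its ends, 23522945 and 84786299, had r = 0.710. The same rule gave 8 chains in all. The smaller ones held 2 to 5 CpGs and spanned at most 17.6 Mb, among them 5 CpGs over 10.5 Mb and 3 over 11.8 Mb.

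The 7 CpGs were chosen for their correlation in these same frogs, so agreement of their levels largely follows from that choice and is only described. Tank means were not subtracted for the classes, so tanks at a single level also add to the agreement. With levels classed as below 0.25, from 0.25 to 0.75, and 0.75 or more, the CpGs at 44728242 and 50181690 put all 187 adults into the same class. Over the 21 pairs of the 7 CpGs the share of adults in the same class ranged from 72.2% to 100.0%, with a median of 88.8%. At 50181690 the 19 frogs of NIGERIAN F8 were 13 in the middle class and 6 in the high class, and at 68295240, 18.1 Mb away, they were again 13 and 6. At both positions the 13 frogs of CMV MEM GFP were 5 in the low and 8 in the middle class, and all 7 frogs of TYR were in the low class. Over all adults these 2 positions put 151 of 187 into the same class, and the 36 others came from 8 of the 32 tanks. Of these, 17 were the frogs of NXR 1111, all in the high class at 50181690 and in the middle class at 68295240. In johMead, 4 of 6 frogs were in the middle class at 50181690, against 0 at 68295240, where all 6 were in the high class. In the 3.02-year tank of Xtr.Tg(otx2:GFP)Kellr no frog was in the low class at 50181690, against 4 of 7 at 68295240. The mixture filter removed all 7 CpGs.

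Chromosome 7 had 5 pairs of split CpGs more than 30 Mb apart with an absolute r above 0.8, of 456 such pairs. All 5 lay within the chain of 7 CpGs, whose members vary together, so they are not separate cases. At 10 to 30 Mb, 11 of 213 pairs passed 0.8 on chromosome 7, 54 of 1492 on chromosome 4 and 9 of 116 on chromosome 5. Beyond 30 Mb the other chromosomes had 0, of 6340 pairs on chromosome 1, 1756 on chromosome 4 and fewer on the others. The highest absolute r there was 0.778, on chromosome 4. The median absolute r beyond 30 Mb was 0.167 on chromosome 7, below the 0.273 of chromosome 4 and above the 0.107 of chromosome 1. None of the 4 CpGs of the first 20 Mb joined the chain. Between them and the 36 CpGs of the rest, no absolute r exceeded 0.532. For pairs 30 to 60 Mb apart the median absolute r was 0.0987 between the stretches (44 pairs) and 0.206 within the rest (199 pairs), and beyond 60 Mb it was 0.1497 (68 pairs) and 0.157 (145 pairs). The CpG at 12870826 had an absolute r of at most 0.155 with any CpG of the rest.

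**Figure D3:**
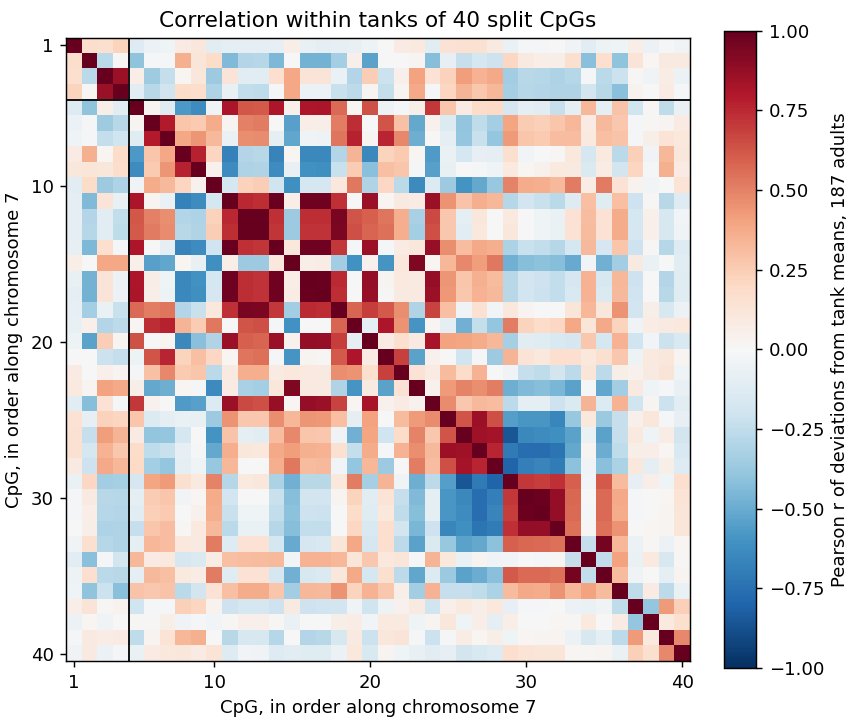
Pearson r of deviations from tank means over 187 adults, for the 40 CpGs of chromosome 7 split in 4 or more tanks, in order along the chromosome on both axes. The black lines part the 4 CpGs of the first 20 Mb, 2 of them in the same cluster, from the 36 of the rest. Dark red blocks away from the diagonal are distant CpGs that vary together, up to r = 0.876 beyond 30 Mb, and the 4 CpGs of the first 20 Mb have no absolute r above 0.532 with the other 36.

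Methylation on chromosome 7 fell with age at more CpGs than it rose. The Spearman correlation with age was taken over the 187 adults, and a CpG was called at a Benjamini-Hochberg adjusted p below 0.001 over all 6175 filtered CpGs. On chromosome 7 168 of 467 CpGs (36.0%) were called, 29 positive and 139 negative, beside 36.1% of all filtered CpGs. Of the 80 CpGs in the first 20 Mb, 15 (18.8%) were called, 1 positive and 14 negative. In the rest 153 of 387 (39.5%) were called, 28 positive and 125 negative. Over the whole series 5.18% of CpGs were called positive and 30.9% negative. The median correlation was -0.13 in the first 20 Mb and -0.17 in the rest, beside -0.16 over all filtered CpGs.

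The lower share in the first 20 Mb was found mainly in its dense clusters. Its 9 clusters of 4 or more filtered CpGs held 4 calls among 50 CpGs (8%), and its 18 smaller clusters 11 among 30 (36.7%). In the rest the corresponding shares were 28.9% of 166 CpGs and 47.5% of 221. Counted by cluster, 14 of 27 clusters (51.9%) of the first 20 Mb held a call, against 96 of 166 (57.8%) in the rest and 59.3% of all clusters. The other bins of 20 Mb along the chromosome had 32.1% to 50.8% of CpGs called. In the first 20 Mb of the other chromosomes the share ran from 17.3% on chromosome 2 to 56.3% on chromosome 8, a range that includes 18.8%.

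Frogs of a tank share their age, so p-values over frogs are too small. With tank means as units, 1 of 80 CpGs (1.25%) in the first 20 Mb and 9 of 387 (2.33%) in the rest passed, beside 1.0% of all filtered CpGs. Within lane 1 the counts were 6 (7.5%) and 37 (9.56%), beside 11.5% of all filtered CpGs, and within lane 2 they were 9 (11.3%) and 80 (20.7%), beside 19.3%. Lane 1 held all of the oldest frogs and lane 2 all of the young adults, so that at these ages the effect of lane cannot be told apart from that of age. The oldest frogs were also all Xtr.Tg(eef1a1:GFP)Krieg, a strain with no young adult. Between these groups strain cannot be told apart from age either.

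**Figure D4:**
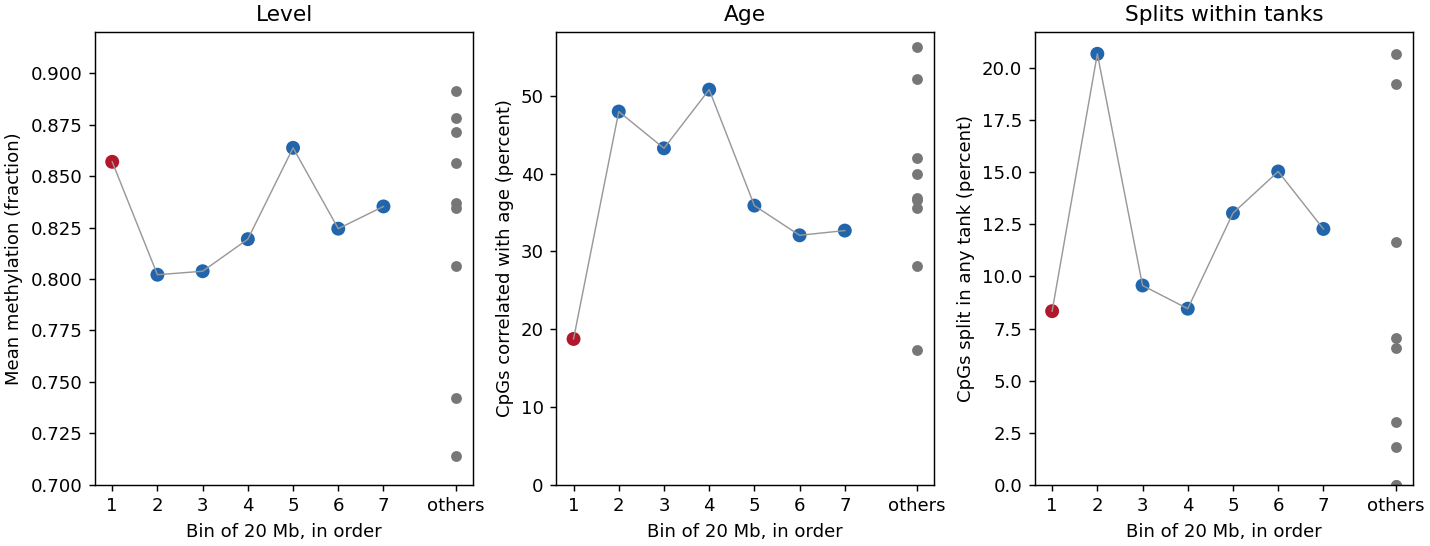
Mean methylation (fraction), percent of filtered CpGs correlated with age and percent of CpGs split in any tank, for the 7 bins of 20 Mb along chromosome 7 in order (red, first 20 Mb, and blue, the rest) and for the first 20 Mb of each other chromosome (grey). The first bin has 18.8% of its CpGs correlated with age, against 32.1% to 50.8% in the other 6 bins. Among the grey points the share runs from 17.3% to 56.3%.

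Within the first 20 Mb the strongest relation with age was at position 18021091, 13866 bp from nrbf2, which in mammals codes for a factor of autophagy. Its methylation had a lowest value of 0.069, a median of 0.224 and a highest of 0.293 in the 22 oldest frogs, against 0.319, 0.399 and 0.453 in the 31 young adults. The groups did not overlap, but the CpG was picked for its correlation with age in these same frogs. The share of all CpGs without overlap was not counted. Spearman's r was -0.69 (adjusted p = 7.34e-25, Benjamini-Hochberg, 187 adults), -0.49 in lane 1, -0.76 in lane 2 and -0.69 over the 32 tank means, where the adjusted p was 0.00105. The CpG at 9594359, 2112 bp from LOC116412098, had means of 0.529 ± 0.0513 in the oldest frogs (SD, n = 22) and 0.668 ± 0.0314 in young adults (SD, n = 31), with r = -0.64. The CpG at 19733022 inside oat averaged 0.630 ± 0.0374 in the oldest frogs and 0.849 ± 0.107 in young adults, with r = -0.63 over all adults and -0.67 in lane 1, but -0.02 in lane 2. It was the only CpG of the first 20 Mb that passed over tank means (r = -0.71, adjusted p = 0.000607). The 1 CpG that rose, at 19779463 and 7117 bp from chst15, averaged 0.93 ± 0.0342 in the oldest frogs and 0.704 ± 0.131 in young adults, with r = 0.46 over all adults. There r was 0.58 in lane 1 and 0.08 in lane 2, and without the oldest frogs it was 0.25, which did not pass the threshold of 0.001 (adjusted p = 0.00367). Over tank means the calls at 9594359 (adjusted p = 0.0136, Benjamini-Hochberg) and 19779463 (adjusted p = 0.00651) were also lost.

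In the rest of the chromosome the largest negative correlation was at 49738297, 1840 bp from LOC105947760. Its lowest, median and highest values were 0.755, 0.775 and 0.802 in the oldest frogs and 0.781, 0.858 and 0.893 in young adults, so that the groups overlapped between 0.781 and 0.802. There r was -0.73 over all adults, -0.78 in lane 1 and -0.48 in lane 2. Next came 49746596, inside the lncRNA gene LOC108648205, with r = -0.69, and 47878090, 82267 bp from LOC108648141, with r = -0.67. The largest positive correlation was at 66066847 inside miip, which in humans codes for an inhibitor of cell migration and invasion. Its values were 0.895, 0.928 and 0.959 in the oldest frogs (lowest, median and highest) and 0.468, 0.528 and 0.769 in young adults. The 2 groups did not overlap, but this CpG too was picked for its correlation in the same frogs. Here as well the share of all CpGs without overlap was not counted. Of all 192 frogs 38 were at 0.75 or more at this CpG, among them the 22 oldest, all Xtr.Tg(eef1a1:GFP)Krieg. There r was 0.64 over all adults, 0.80 in lane 1 and 0.28 in lane 2. At 49746311, in the same cluster as the CpG that fell in LOC108648205, the correlation was positive with r = 0.63. The CpG at 29036440 inside arl3, a small GTPase of cilia, had r = 0.47 over all adults, 0.15 in lane 1 and 0.55 in lane 2. With tank means as units the calls at 49738297, 49746596, 47878090 and 66066847 stayed, while those at 49746311 (adjusted p = 0.0081, Benjamini-Hochberg) and 29036440 (adjusted p = 0.0309) were lost.

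**Figure D5:**
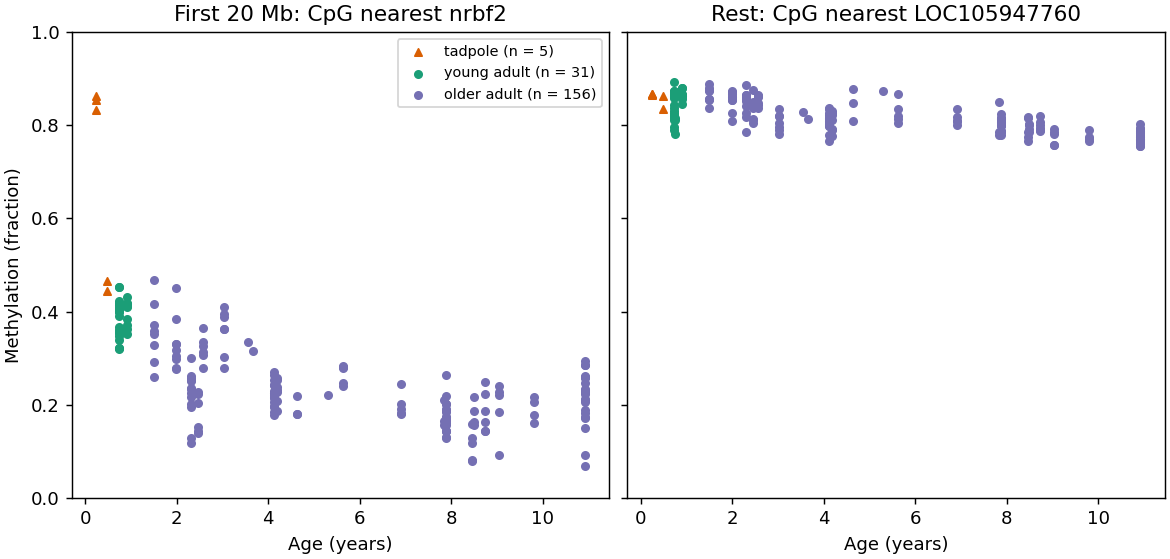
Methylation (fraction) against age in years in each frog, for the CpG of the first 20 Mb (left) and of the rest of chromosome 7 (right) with the largest negative correlation with age. Triangles are 5 tadpoles, green circles 31 young adults and violet circles 156 older adults. On the left the oldest frogs lie between 0.069 and 0.293 and the young adults between 0.319 and 0.453, and 3 tadpoles lie at 0.832 or more.

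The mean level of each stretch had a negative correlation with age, which by Pearson's r passed the threshold of 0.05 in the rest and not in the first 20 Mb. Over 32 tank means the Pearson correlation with age was -0.33 for the first 20 Mb (p = 0.0643, Spearman's rho = -0.37, p = 0.0368) and -0.49 for the rest (p = 0.00446, rho = -0.46, p = 0.00772), by two-sided permutation tests. The slope was -0.00104 per year in the first 20 Mb, -0.0017 in the rest and -0.00149 on the other chromosomes. Within lane 1 Pearson's r was -0.16 for the first 20 Mb (p = 0.486) and -0.39 for the rest (p = 0.0799, n = 21, permutation tests). Within lane 2 the values were -0.33 (p = 0.366) and -0.22 (p = 0.545, n = 10, permutation tests), so neither stretch passed within a lane. The difference between the stretches had r = 0.30 with age (p = 0.0904, adjusted p = 0.127, rho = 0.32, p = 0.0739, permutation tests), which did not pass the threshold. It was 0.24 without the 2 tanks farthest from the median age, 0.07 without the oldest frogs, 0.32 within lane 1 (p = 0.155, n = 21) and -0.11 within lane 2 (p = 0.762, n = 10, permutation tests). For chromosome 7 minus the other chromosomes r was -0.09 (p = 0.632, rho = -0.09, p = 0.611, n = 32, permutation tests) and -0.06 without the 2 farthest tanks. When the CpGs removed by the mixture filter were kept, this last r became 0.73 (p = 1e-05, permutation test). The removed CpGs are those with separate levels, and at the ones named above the levels differed between strains. All of the oldest frogs were Xtr.Tg(eef1a1:GFP)Krieg, so this r does not separate age from strain.

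Tadpoles were compared with young adults, the adults nearest to them in age. Tadpoles were whole organisms and adults gave webbing skin, so tissue and stage cannot be told apart. No young adult was ZBTB14 KO, so strain adds to the comparison. The ZBTB14 KO tadpoles were also older than those of Superman F9 WT (177 against 89 days). Between these 2 sets of tadpoles knockout, strain and age cannot be told apart. On chromosome 7 153 of 467 CpGs (32.8%) differed by limma on log2 logit values at an adjusted p below 0.05, of which 71 were higher and 82 lower in tadpoles. Over all filtered CpGs the share was 38.8%, with 19.5% higher and 19.4% lower in tadpoles. The first 20 Mb had 24 of 80 called (30.0%), 9 higher and 15 lower, and the rest 129 of 387 (33.3%), 62 higher and 67 lower. With the tank as a block, the calls fell to 11 of 80 (13.8%), 5 higher and 6 lower, and to 65 of 387 (16.8%), 38 higher and 27 lower, beside 18.7% of all filtered CpGs. Superman F9 WT tadpoles against SUPERMAN F8 young adults alone, each from a single tank, gave 30 of 80 (37.5%) and 157 of 387 (40.6%). The share over all filtered CpGs was then 43.2%. The 5 tadpoles came from 2 tanks and the 31 young adults from 3, so that few independent units stand behind these counts.

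The largest excess in tadpoles within the first 20 Mb was again at 18021091. The 3 tadpoles of Superman F9 WT had 0.854, 0.863 and 0.832 and the 2 of ZBTB14 KO had 0.466 and 0.444, against 0.319 to 0.453 in young adults. The Superman F9 WT tadpoles lay far above every young adult, while 1 of the ZBTB14 KO tadpoles was inside the range of young adults. The limma estimate was 2.06 ± 0.26 (SE) on the log2 logit scale (adjusted p = 2.3e-07, limma). At 19765462, inside the lncRNA gene LOC108648045, tadpoles averaged 0.734 ± 0.0684 and young adults 0.532 ± 0.0599 (SD, n = 5 and 31). At 19779463 near chst15 tadpoles averaged 0.891 ± 0.0299 and young adults 0.704 ± 0.131, a call that was lost with the tank as a block (adjusted p = 0.0685, limma). The largest drop was at 19744131 inside LOC101733213, with 0.519, 0.608 and 0.555 in Superman F9 WT and 0.858 and 0.782 in ZBTB14 KO, against 0.834 to 0.916 in young adults. The smaller differences of -0.0542 at 2589855, inside LOC116412128, and of -0.0354 at 175450, 44 bp from LOC116412586, were also lost with the block (adjusted p = 0.111 and 0.0542, limma).

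In the rest of the chromosome the CpG at 29218294 inside trim8, a gene of a ubiquitin ligase, rose most in tadpoles. The 3 Superman F9 WT tadpoles had 0.806, 0.787 and 0.832 and the 2 ZBTB14 KO tadpoles 0.256 and 0.278, against 0.0979 to 0.260 in young adults (adjusted p = 1.42e-08, limma). At 96643671 inside LOC100145446 the Superman F9 WT tadpoles had 0.872, 0.858 and 0.916, but the ZBTB14 KO tadpoles had 0.198 and 0.213, within the 0.190 to 0.318 of young adults. At 59186725 inside cldnd1, a claudin-like membrane protein, tadpoles averaged 0.609 ± 0.241 and young adults 0.280 ± 0.0331 (SD, n = 5 and 31). There the Superman F9 WT tadpoles had 0.807, 0.763 and 0.779 and the ZBTB14 KO tadpoles 0.399 and 0.299. Young adults ranged from 0.230 to 0.356. Among CpGs lower in tadpoles, 104107693 in epn1, an adaptor of endocytosis, averaged 0.736 ± 0.0672 in tadpoles and 0.871 ± 0.0269 in young adults. The CpG at 90708811 in morn1 had 0.805 ± 0.111 and that at 102060742 in prdm16, a transcription factor known in mammals for brown fat, had 0.802 ± 0.115 in tadpoles. Young adults had 0.935 ± 0.013 and 0.916 ± 0.0154 at these positions. In both the 3 Superman F9 WT tadpoles were at most 0.75 and the 2 ZBTB14 KO tadpoles at least 0.895.

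Averaged over CpGs and with frogs as units, tadpoles were above young adults in the rest of the chromosome and on the other chromosomes, and in the first 20 Mb the difference did not pass the test. The mean of the first 20 Mb was 0.876 ± 0.0129 in tadpoles and 0.870 ± 0.00924 in young adults (exact permutation test, p = 0.249). The mean of the rest was 0.851 ± 0.0187 in tadpoles and 0.837 ± 0.0048 in young adults (exact p = 0.00253, n = 5 and 31). On the other chromosomes it was 0.859 ± 0.0163 in tadpoles and 0.845 ± 0.0039 in young adults (exact p = 0.001, n = 5 and 31), a difference of 0.0145 beside 0.0143 in the rest of chromosome 7. By tank, the rest of chromosome 7 had 0.859 in Superman F9 WT and 0.839 in ZBTB14 KO tadpoles, against 0.835, 0.838 and 0.840 in young adults, so that only the Superman F9 WT tank lay above all young adult tanks. With tanks as units the exact p was 0.2 for the rest and 0.3 for the first 20 Mb, and the design cannot go below 0.1. The excess of the first 20 Mb over the rest was 0.0251 ± 0.00711 in tadpoles and 0.0339 ± 0.0085 in young adults, a difference of -0.00877 (two-sided exact permutation test, p = 0.0358, adjusted p = 0.0626). By tadpole the excess was 0.0218, 0.0237 and 0.016 in Superman F9 WT and 0.0297 and 0.0343 in ZBTB14 KO, and young adults ranged from 0.0219 to 0.0534. Tadpoles thus overlapped with young adults, and after adjustment the difference between the stretches did not pass the threshold of 0.05. With the 2 and 3 tanks as units the difference was -0.00654 (exact p = 0.3).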

How the data were processed

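Targeted bisulfite libraries were sequenced on 2 lanes. Per the sources, the authors trimmed reads with fastp, used BiSulfite Bolt to align them to the v10.0 genome and call methylation, kept CpGs covered at least 100 times in all 192 frogs and deposited 1 methylation fraction for each CpG and frog, with no pooling. All 192 deposited columns hold fractions from 0 to 1. Read counts behind single values are not given, so no interval was calculated for them.

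Tank and lane came from the study's supplementary data. The mixture filter used scikit-learn 1.9.0 (BIC difference above 90, smallest value below 0.006) and left 6175 CpGs, which is not exactly the study's own set. Age correlations, sign-flip and permutation tests (100000 resamples, or exact) used scipy 1.17.1 and numpy 2.4.6. Tadpoles were compared with limma 3.58.1 (log2 logit, offset 0.001), also with tank as a block (duplicateCorrelation, correlation 0.212). Gene spans were those of RefSeq on UCB_Xtro_10.0. The methods were tested on simulated data.

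Members, tests and lists were chosen with earlier results of these data known. CpGs named are, in each stretch and at most 1 per cluster, the 5 split in most tanks, the 3 with the largest age correlation in each direction, the 3 with the largest called tadpole difference in each direction, the 2 on either side of the division and both ends. Alternatives changed the filter, boundary, counting by cluster, lanes, split limits, units, thresholds and frogs included. For frogs of a tank, p-values measure the spread between these frogs and tanks only.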

Additional observations from a re-analysis of the deposited data

Results flagged for a closer look

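Frogs that stood apart within their tank were looked for in 22 tanks of 4 to 10 frogs and in the 5 tadpoles, on 4 mean levels each, by Dixon's ratio of the gap to the range. Of 92 tests 7 passed, and chance gives about 1 in 20. For the excess of the first 20 Mb over the rest, the highest frog of WT Superman had 0.0427 (next 0.033), the lowest of Xtr.Et(eef1a1:GFP)psvbiMead had 0.0271 (next 0.0341), and the highest of the 5 frogs aged 9.04 years had 0.0311 (next 0.0237). For the mean of the first 20 Mb, the lowest frog of Xtr.Et(eef1a1:GFP)folMead had 0.850 (next 0.858). For chromosome 7 minus the other chromosomes, the highest frog of the 3.02-year tank of Xtr.Tg(otx2:GFP)Kellr had -0.00178 (next -0.00791), the lowest of tubb2b GFP had -0.00031 (next 0.00473), and the lowest of Xtr.Et(eef1a1:GFP)psvbiMead had -0.00922 (next -0.00471).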

How the results depend on the processing

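Counting each cluster once gave a level difference between the first 20 Mb and the rest of -0.00039 (p = 0.808), a chromosome 7 level difference of -0.000304 (p = 0.634) and a chromosome 7 split difference of -0.697 points. Filtered CpGs alone gave a split difference of -0.311 points for the first 20 Mb (permutation p = 0.0491) and of -0.0467 for chromosome 7. In lane 2 alone the chromosome 7 level difference was -0.00078, the split differences were -0.629 points for the first 20 Mb and -0.172 for chromosome 7, and r of the level difference with age was -0.109. A gap above 0.15 gave a split difference of -1.46 points for the first 20 Mb (permutation p = 0.0627), and boundaries of 10 and 30 Mb gave -3.77 and -1.25. The r of the level difference with age passed the threshold with frogs as units (0.19, p = 0.00923) and with a boundary of 10 Mb (0.415, p = 0.018, permutation tests). For chromosome 7 minus the others r was 0.734 without the filter, 0.0289 with frogs as units, 0.211 in lane 1, 0.159 in lane 2 and 0.0246 without the oldest age. Of 80 filtered CpGs in the first 20 Mb, age calls were 6 in lane 1, 9 in lane 2, 1 with tank means and 40 at a threshold of 0.05. Of 387 in the rest they were 37, 80, 9 and 236. Over all filtered CpGs the shares in lane 1, in lane 2 and with tank means were 11.5%, 19.3% and 1.0%. The share of all CpGs at 0.05 was not calculated. Below 10 Mb 4 of 31 (12.9%) were called for age, beside 36.1% of all filtered CpGs. Stage calls were 11 and 65 with the tank as a block, beside 18.7% of all filtered CpGs. Below 10 Mb 11 of 31 (35.5%) were called for stage, beside 38.8%. Leaving out each tadpole in turn gave 20 to 33 stage calls in the first 20 Mb (25.0% to 41.25%) and 88 to 152 in the rest (22.74% to 39.28%). The share of all filtered CpGs called then ran from 26.15% to 44.57%. The stage difference was then -0.0111 to -0.00648 (exact p = 0.0158 to 0.149, and 0.0854, 0.0697 and 0.149 without Superman F9 WT tadpole 1, 2 or 3). With tanks as units the stage difference was -0.00654. The causes were not tested. The other 62 of these alternatives kept the call and direction, or a count within 1.5 times, and for named CpGs 171 alternatives kept call and direction, 19 lost the call and 0 reversed it. Leaving out the frog whose listed age differs from its tank mates was added after the data had been seen, as was leaving out the 3 young adults titled as tadpoles. The latter gave 24 and 129 stage calls (30.0% and 33.3%), beside 39.95% of all filtered CpGs, and a stage difference of -0.00922 (exact p = 0.0313). No alternative of the coverage minimum could be run because the table holds no read numbers. No paired analysis was possible because replicate numbers name frogs in no shared order and do not pair tadpoles with adults.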
